A study of Mus musculus with 16 samples.

Results

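Expression of 34 genes of cholesterol metabolism, of 55401 genes in the deposited tables, was examined in CD8+ T cells with and without pyruvate dehydrogenase. The genes were chosen by function: 8 enzymes from acetyl-CoA to the isoprenoid diphosphates (the mevalonate arm), 11 enzymes from squalene to cholesterol (the sterol arm), 5 genes of the SREBP system, 4 genes of intracellular transport and storage, and 6 genes of efflux and the liver X receptors (LXR). For the comparison of synthesis with efflux, 22 of them (the 19 enzymes with Srebf2, Insig1 and Stard4) were taken as targets of SREBP2 and 5 (Abca1, Abcg1, Mylip, Lpcat3 and Srebf1) as targets of LXR. All 34 passed the filter on low counts.

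RNA was sequenced from 16 libraries of mouse T cells in 4 groups of 4. TPdh-/- mice carried a floxed Pdha1 allele and a Cre transgene under the Cd4 promoter, which acts from the double-positive thymocyte stage on, and WT mice were the controls. Whether WT mice carried either allele was not given in the sources used here. Pdha1 lies on the X chromosome and encodes the E1 alpha subunit of pyruvate dehydrogenase, which turns pyruvate into acetyl-CoA in mitochondria. Per the study's methods, young adult male and female mice were used, and spleen cells with the OT-I receptor, a transgenic T cell receptor for an ovalbumin peptide, were activated with that peptide and then kept in IL-2 to give effector (TE) cells or in IL-15 to give memory (TM) cells. Effector libraries are numbered 1 to 4 in WT and 5 to 8 in TPdh-/- cells, and memory libraries 9 to 12 in WT and 13 to 16 in TPdh-/- cells. It is not given in the labels if each library stands for its own mouse, so p-values measure the spread between these libraries, which may be technical. The study's legend for RNA sequencing of TM cells names 5 mice per condition, which differs from the 4 libraries per group here.

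Cholesterol is built from cytosolic acetyl-CoA. The mevalonate arm joins acetyl-CoA units and makes isopentenyl and farnesyl diphosphate, and the sterol arm closes the squalene chain into lanosterol and trims it to cholesterol. When sterols in the endoplasmic reticulum run low, SCAP carries the SREBP precursors to the Golgi, where they are cut and released as transcription factors that switch on the synthesis enzymes. INSIG proteins hold SCAP back when sterols are plentiful. LXR is activated by oxysterols and switches on exporters, so that synthesis and efflux are usually driven in opposite directions. Activated T cells raise sterol synthesis to build membrane as they divide.

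Levels are given in CPM, the expected counts scaled to the library total with TMM factors, and a difference is called at an adjusted p under 0.05 in edgeR's quasi-likelihood test over 15277 genes, which used all 16 libraries. Each SE was taken from the spread of log2 CPM within the compared groups, while differences and p-values came from the edgeR fit. The SE is therefore not that of the tested coefficient. Totals ran from 53007257 to 73507566 counts per library. Libraries 12 (WT TM) and 5 (TPdh-/- TE) stood farthest from the others of their groups, with a median distance over all tested genes of 0.192 and 0.182 on the log2 scale against 0.077 to 0.148 for the other 14 libraries. Within their groups, library 1 was the lowest in 23 of the 34 genes and library 13 in 21. Pdha1 itself had 169, 169, 179 and 194 CPM in the WT TM libraries and 141, 151, 159.7 and 158 CPM in the TPdh-/- TM libraries, and 161, 161, 162 and 160.1 CPM in the WT TE libraries and 156, 147, 155 and 153 CPM in the TPdh-/- TE libraries. It was lower in TPdh-/- TM cells (-0.22 ± 0.062 SE, adjusted p = 0.00556) and not called in TE cells (-0.08 ± 0.02 SE, adjusted p = 0.285). The tables give 1 value per gene and not per exon, so the deleted part could not be examined, and the groups are named here as labelled. Markers of CD8 T cells summed to 3088 to 5056 TPM (a level per length of transcript, scaled to a fixed total) per library, and Cd4 stayed at or below 0.5 TPM. Foxp3 was at 0.29 to 0.47 TPM in WT TE and 1.66 to 8.1 TPM in TPdh-/- TE libraries. In TM libraries it was at 0.5 to 1.04 TPM in WT and 0.63 to 1.83 TPM in TPdh-/- cells.

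Per length of transcript, some synthesis genes were among the most abundant of the 34. Others were among the lowest, such as Mvk (16.1 TPM) and Hsd17b7 (5.73 TPM) in WT TE cells. In WT TE cells Fdps had the highest level (272.5 ± 21.9 TPM, SD, n = 4), followed by Hmgcs1 (129.7 ± 8.35 TPM), the lysosomal protein gene Npc2 (123 ± 7.17 TPM) and Idi1 (114.8 ± 4.76 TPM), and the last 3 lay within or near their combined spread. Abca1 was the lowest of the 34 in all 4 groups, at 0.805 TPM in WT TE cells, 1.93 in TPdh-/- TE cells, 0.562 in WT TM cells and 1.65 in TPdh-/- TM cells. In TM cells of both genotypes Npc2 was first (142.9 and 135.1 TPM), and Fdps was at 62.7 ± 3.06 TPM in WT and 63.6 ± 9.71 TPM in TPdh-/- cells. The heatmap of the 34 genes by library shows that the mean level of 17 of the 19 enzymes was highest in TPdh-/- TE cells, lower in WT TE cells, and lowest in TM cells of both genotypes. The exceptions were Ggps1, which was lowest in WT TE cells, and Ebp, whose mean was highest there.

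**Figure D1:**
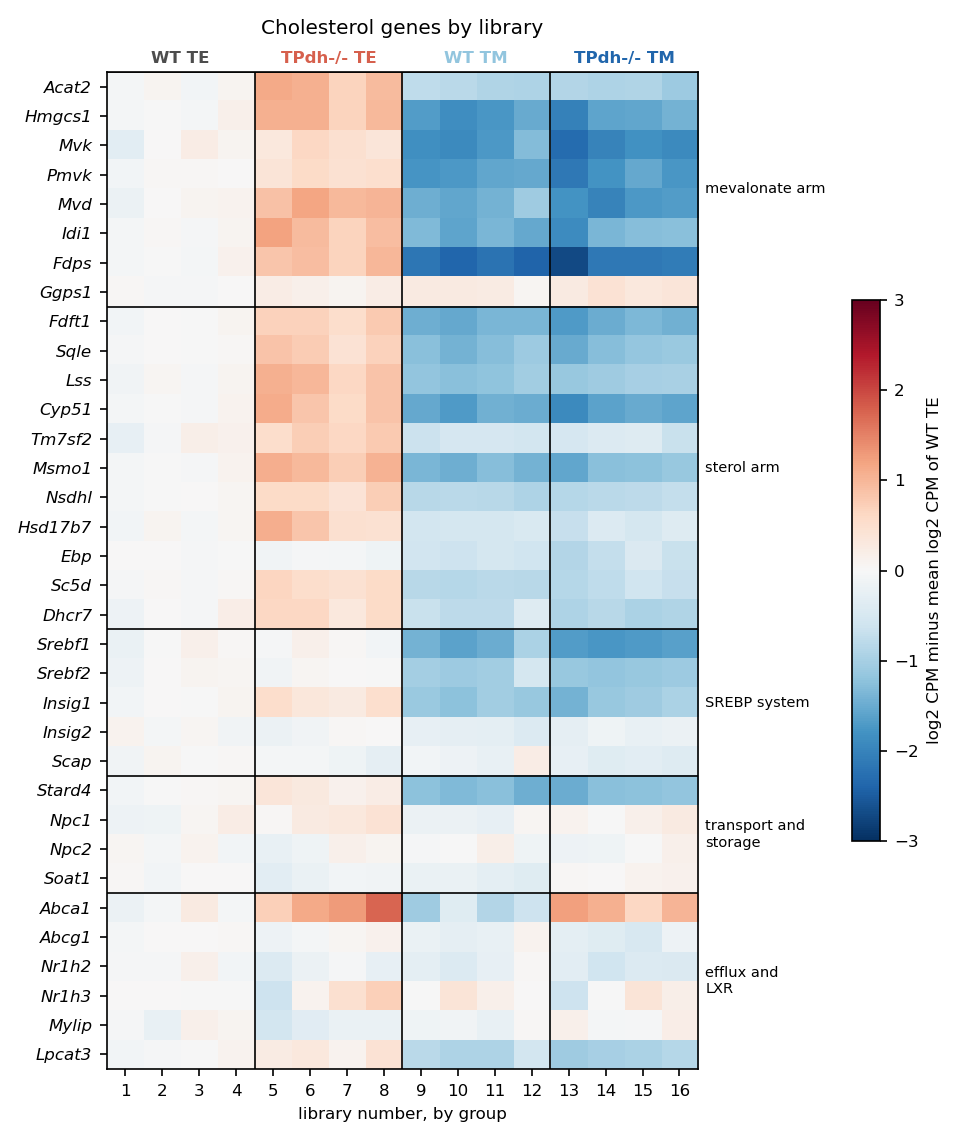
Heatmap of log2 CPM of each gene (rows, by role) in each library (columns, by group), minus the gene's mean log2 CPM in WT TE cells. Most enzymes of the mevalonate and sterol arms are red in all 4 TPdh-/- TE libraries and blue in all 8 TM libraries, Ggps1, Ebp and Npc2 stay near white or pale, and Abca1 is red in both TPdh-/- groups.

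The first question was how TPdh-/- and WT cells differed in effector cultures. Enzymes of cholesterol synthesis rose almost as a whole: all 8 enzymes of the mevalonate arm and 10 of the 11 of the sterol arm were higher in TPdh-/- TE than in WT TE cells, and none was lower. Over the 34 genes, 23 were called higher and 2 lower, where 31.6% of all genes tested were called, 17.3% higher and 14.3% lower. The CPM of the groups did not overlap in 21 of the higher genes and, in the other direction, in Ebp, where 16.5% and 16.6% of all genes lay apart in these directions. The median difference was 0.90 in the mevalonate arm and 0.68 in the sterol arm on the log2 CPM scale, against -0.00025 over all genes tested. The TPM of the median gene was itself shifted by 0.139 (log2) against its CPM in this comparison, in favour of TPdh-/- cells.

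In the mevalonate arm, Acat2, which joins acetyl-CoA into acetoacetyl-CoA, had 69.1, 76.4, 68.2 and 76.8 CPM in the WT TE libraries and 159.6, 152, 116 and 139 CPM in the TPdh-/- TE libraries, a difference of 0.96 ± 0.11 (SE, adjusted p = 2.41e-07), on the log2 CPM scale as are all differences given with an SE. A share of 33.9% of the 75-base words of its transcripts also stands in Acat3, so reads of these 2 genes can be split between them. Hmgcs1, which makes HMG-CoA, had 345, 356, 344 and 398 CPM in the WT TE libraries and 754, 760.1, 569.9 and 707 CPM in the TPdh-/- TE libraries. Of its exon bases, 12.1% overlap a gene model on the other strand. Its groups lay apart, at 1.93 times the WT level (0.95 ± 0.11 SE, adjusted p = 8.58e-06). Mvd, the decarboxylase that ends the mevalonate steps, showed the largest rise among the enzymes, from 23.4, 26.6, 28.03 and 28.6 CPM in WT TE to 49.2, 60.1, 52.3 and 54.3 CPM in TPdh-/- TE libraries, 1.02 ± 0.089 (SE, adjusted p = 7.31e-07). Every TPdh-/- library was above every WT library. Idi1, the isopentenyl diphosphate isomerase, rose by 0.94 ± 0.12 (SE, adjusted p = 1.41e-05) and Fdps, the farnesyl diphosphate synthase, by 0.85 ± 0.086 (SE, adjusted p = 1.29e-05). Of Idi1, 16.7% and of Fdps, 23.5% of the 75-base words are shared with other gene models. The kinases Mvk and Pmvk rose less, by 0.44 ± 0.13 (SE, adjusted p = 0.0141) and 0.48 ± 0.049 (SE, adjusted p = 0.00056). The call of Mvk was lost without library 1 or 6 (adjusted p = 0.0591 and 0.0557). Ggps1, which leads to protein geranylgeranylation rather than to sterols, had the smallest change of the arm, 50.4, 48.3, 48.4 and 50.1 CPM against 57.2, 54.7, 52.4 and 57.8 CPM (0.17 ± 0.036 SE, adjusted p = 0.0248). Its call was lost without any of libraries 2, 3, 4, 5, 6 or 8, with adjusted p between 0.0522 and 0.0866.

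In the sterol arm the rises ran from 0.53 to 0.96. Msmo1, the methylsterol oxidase, had 62.5, 65.1, 63.7 and 70.8 CPM in the WT TE libraries and 139, 129, 109 and 135 CPM in the TPdh-/- TE libraries (0.96 ± 0.089 SE, adjusted p = 2.92e-07). Lss, which closes squalene epoxide into lanosterol, had 77.5, 88.2, 82.2 and 88.8 CPM in the WT TE libraries and 176, 167, 130.0 and 152 CPM in the TPdh-/- TE libraries (0.89 ± 0.11 SE, adjusted p = 3.41e-07). Cyp51, the lanosterol demethylase, had 166, 172, 169 and 186 CPM in the WT TE libraries and 377, 309, 258 and 315 CPM in the TPdh-/- TE libraries (0.86 ± 0.12 SE, adjusted p = 4.77e-06). In each of these genes library 7 was the lowest TPdh-/- TE library and still lay above all WT TE libraries. Hsd17b7, the sterol keto-reductase, rose by 0.74 ± 0.16 (SE, adjusted p = 7.91e-05), with library 5 at 44.8 CPM and the other 3 TPdh-/- libraries at 28.8 to 37.2 CPM. Sqle and Fdft1, the squalene epoxidase and synthase, rose by 0.69 ± 0.09 (SE, adjusted p = 1.74e-05) and 0.68 ± 0.06 (SE, adjusted p = 1.4e-06). Fdft1 shares 18.3% of its exon bases with Ctsb on the other strand, and the libraries do not mark strand. Smaller rises were seen for the reductase genes Tm7sf2 (0.67) and Dhcr7 (0.53), the dehydrogenase gene Nsdhl (0.58) and the desaturase gene Sc5d (0.56), with adjusted p from 6.12e-07 to 0.000241. Ebp, the sterol isomerase, was the exception. It had 86.7, 87.2, 84.6 and 85.6 CPM in the WT TE libraries and 79.7, 83.99, 82.3 and 78.3 CPM in the TPdh-/- TE libraries, and the difference of -0.09 ± 0.025 (SE, adjusted p = 0.353) was not called although its groups did not overlap.

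**Figure D2:**
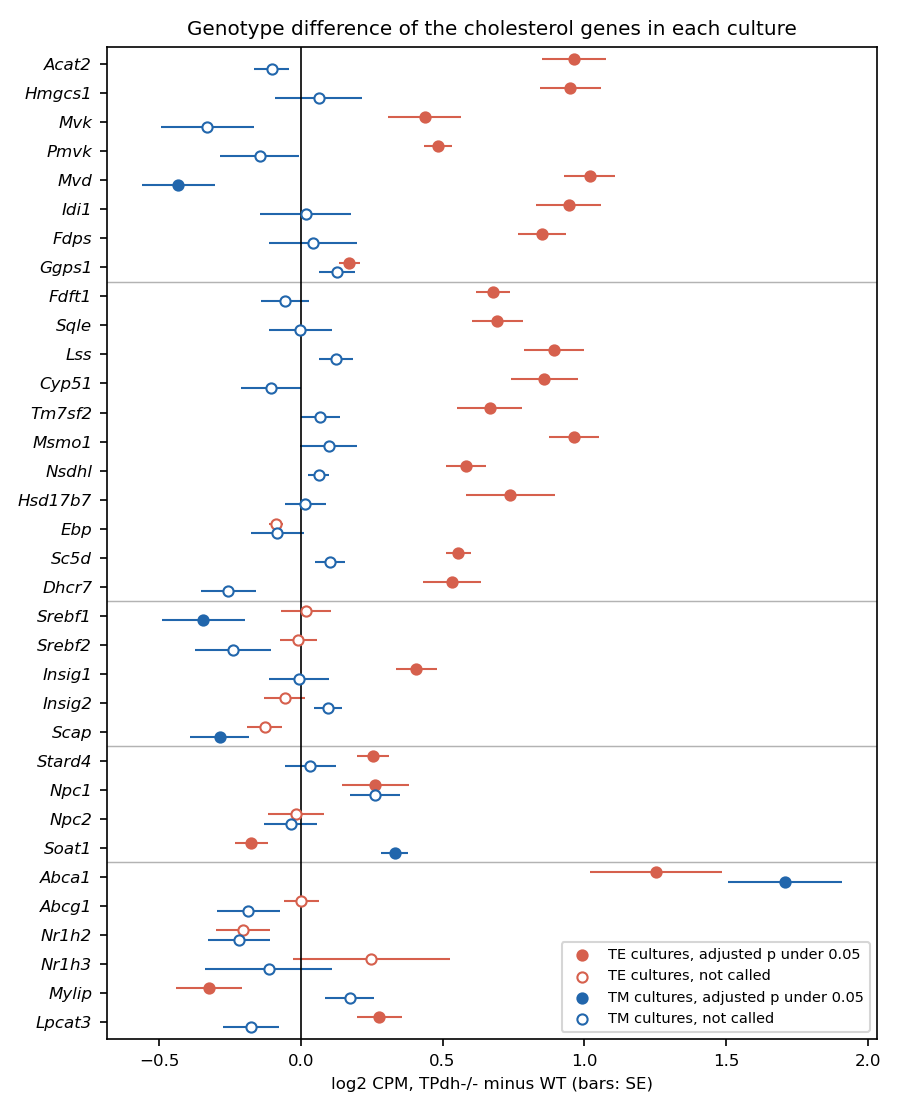
Difference in log2 CPM between TPdh-/- and WT cells for each of the 34 genes (rows, by role), in TE cultures (red) and TM cultures (blue), with bars of 1 SE and filled points where the adjusted p was under 0.05. In TE cultures the enzymes lie mostly between 0.4 and 1, in TM cultures they lie around 0, and Abca1 lies far to the right in both.

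To show the start regions of the synthesis genes with the smallest adjusted p between genotypes, the 200 bases before the start of transcription are printed here from RefSeq (build GRCm38.p6), read in the direction of the gene, together with Hmgcs1, which was added after its match was seen. Capitals mark the sterol regulatory element core searched as CACNCCAC (in its longer form TCACNCCAC) and the CCAAT box bound by NF-Y, a partner of SREBP2, on either strand. Sites on the other strand appear in reverse complement, ATTGG for CCAAT. The positions are Hmgcs1 at chr13:119690151-119690350 on the plus strand, Acat2 at chr17:12960726-12960925 on the minus strand, Msmo1 at chr8:64733579-64733778 on the minus strand, Lss at chr10:76531405-76531604 on the plus strand and Sc5d at chr9:42264301-42264500 on the minus strand.
Hmgcs1: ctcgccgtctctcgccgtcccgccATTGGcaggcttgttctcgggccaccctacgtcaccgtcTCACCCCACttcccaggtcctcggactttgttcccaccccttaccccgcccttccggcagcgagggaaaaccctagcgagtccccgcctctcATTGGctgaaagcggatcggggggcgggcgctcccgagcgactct
Acat2: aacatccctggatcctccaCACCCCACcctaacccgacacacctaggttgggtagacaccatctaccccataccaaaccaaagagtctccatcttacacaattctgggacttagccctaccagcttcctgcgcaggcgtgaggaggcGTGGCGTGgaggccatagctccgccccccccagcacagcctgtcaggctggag
Msmo1: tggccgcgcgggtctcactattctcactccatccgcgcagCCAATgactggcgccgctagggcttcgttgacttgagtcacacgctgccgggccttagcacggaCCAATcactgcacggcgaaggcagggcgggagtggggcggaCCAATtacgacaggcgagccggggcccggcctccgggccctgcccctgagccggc
Lss: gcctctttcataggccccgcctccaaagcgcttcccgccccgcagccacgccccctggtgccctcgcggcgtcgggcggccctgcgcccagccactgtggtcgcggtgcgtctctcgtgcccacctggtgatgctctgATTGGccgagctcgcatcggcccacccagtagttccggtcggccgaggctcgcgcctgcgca
Sc5d: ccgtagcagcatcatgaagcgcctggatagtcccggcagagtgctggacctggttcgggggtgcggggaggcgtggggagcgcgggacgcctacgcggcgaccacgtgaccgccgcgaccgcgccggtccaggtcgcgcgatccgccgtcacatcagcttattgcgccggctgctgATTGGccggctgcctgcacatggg

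Promoters (300 bases, 250 of them before the start) were matched for 28 of the 34 genes, 18 of them on the SREBP2 side. These 28 genes had 37 promoters. A gene was counted if any of its promoters held the match, while the share over all promoters is per promoter. The longer core stood in 1 of these 18, Hmgcs1, 137 bases before the start, and in 1.24% of all 32851 promoters in the table. The shorter core stood in 3 of the 18 (Hmgcs1, Acat2 and Insig1) and in 6.24% of all promoters. CCAAT boxes stood in 17 of the 18 and in 37.4% of all promoters, and Acat2 was the gene without one. Msmo1 held 3 of them, 160, 96 and 55 bases before the start. A match is a description of the letters only.

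Of the 5 genes of the SREBP system itself, 1 was called in TE cultures. Srebf2, which encodes SREBP2, had 232, 258, 274 and 269.5 CPM in the WT TE libraries and 242, 270.1, 262 and 254 CPM in the TPdh-/- TE libraries, a difference of -0.01 ± 0.065 (SE, adjusted p = 0.958). Srebf1, which encodes SREBP1, had 74.8, 85.4, 94.5 and 88.2 CPM in the WT TE libraries and 84, 95.2, 87.7 and 80.4 CPM in the TPdh-/- TE libraries (0.02 ± 0.087 SE, adjusted p = 0.914). For both the genotypes overlapped throughout. Insig1, which retains SCAP and is itself a target of SREBP2, rose from 74.1, 79.9, 78.9 and 83.3 CPM to 114, 100.4, 94.5 and 111 CPM (0.41 ± 0.071 SE, adjusted p = 0.00106). Insig2 (-0.06 ± 0.071 SE, adjusted p = 0.538) and Scap (-0.13 ± 0.062 SE, adjusted p = 0.251) were not called. Thus 20 of the 22 SREBP2 targets were higher, and Srebf2 and Ebp were not called.

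The second question was the same comparison in memory cultures. None of the 22 SREBP2 targets was higher in TPdh-/- TM than in WT TM cells and 1, Mvd, was lower, with a median difference of 0.0071 against -0.0048 over all genes. Over the 34 genes, 2 were called higher (Abca1 and Soat1) and 3 lower (Mvd, Srebf1 and Scap), where 18.3% of all genes were called, 11% higher and 7.27% lower. Mvd had 9.69, 9.02, 9.91 and 12.7 CPM in the WT TM libraries and 7.63, 6.67, 7.99 and 8.38 CPM in the TPdh-/- TM libraries (-0.43 ± 0.13 SE, adjusted p = 0.00817). All 4 TPdh-/- libraries lay below all WT libraries. Hmgcs1 had 112, 99, 107 and 127 CPM in the WT TM libraries and 88.01, 119.9, 123 and 134 CPM in the TPdh-/- TM libraries, and the difference of 0.06 ± 0.15 (SE, adjusted p = 0.763) had a standard error larger than itself. Fdps had 53.8, 46.9, 52.3 and 46.2 CPM in the WT TM libraries and 37.5, 55.03, 55.5 and 57.3 CPM in the TPdh-/- TM libraries (0.04 ± 0.15 SE, adjusted p = 0.831). In both genes library 13 was the lowest TPdh-/- library and the groups overlapped. Dhcr7, the reductase that gives cholesterol, had 33.1, 30.6, 30.4 and 40.1 CPM in the WT TM libraries and 27.8, 29.5, 27.2 and 27.9 CPM in the TPdh-/- TM libraries. Its groups lay apart but the difference of -0.26 ± 0.097 (SE, adjusted p = 0.0634) was not called, except without library 10 or 11 (adjusted p = 0.0453 and 0.0463) and with DESeq2's test (adjusted p = 0.0422). Genes lower without overlap made up 8.78% of all genes tested.

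In the SREBP system, Srebf1 had 32.04, 27.99, 30.5 and 44.1 CPM in the WT TM libraries and 26.7, 25.6, 26.1 and 27.7 CPM in the TPdh-/- TM libraries (-0.34 ± 0.15 SE, adjusted p = 0.036), and Scap had 55.4, 52.8, 49.5 and 68.3 CPM in the WT TM libraries and 48.9, 45.1, 46.7 and 44.6 CPM in the TPdh-/- TM libraries (-0.29 ± 0.10 SE, adjusted p = 0.0198). Library 12 was the highest WT TM library in both. Without it the differences were -0.18 in each gene, with adjusted p of 0.121 and 0.0598, and both calls were lost. The call of Srebf1 was also lost without any of libraries 9, 13, 14, 15 or 16 (adjusted p between 0.0524 and 0.0863), and that of Scap without library 14 or 16 (0.0536 and 0.0568). Of the exon bases of Scap, 13.2% overlap a gene model on the other strand. Srebf2 had 128, 121, 126 and 179 CPM in the WT TM libraries and 116, 114, 117 and 122 CPM in the TPdh-/- TM libraries (-0.24 ± 0.13 SE, adjusted p = 0.0946), where library 12 again stood above the other WT libraries. It was called without library 10 (-0.30, adjusted p = 0.0441), as was Ebp without library 15 (-0.16, adjusted p = 0.0491). The calls of Srebf1 and Scap also failed in a fit with only the TM libraries (adjusted p = 0.0863 and 0.0606). Insig1 and Insig2 were not called (-0.01 and 0.10).

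**Figure D3:**
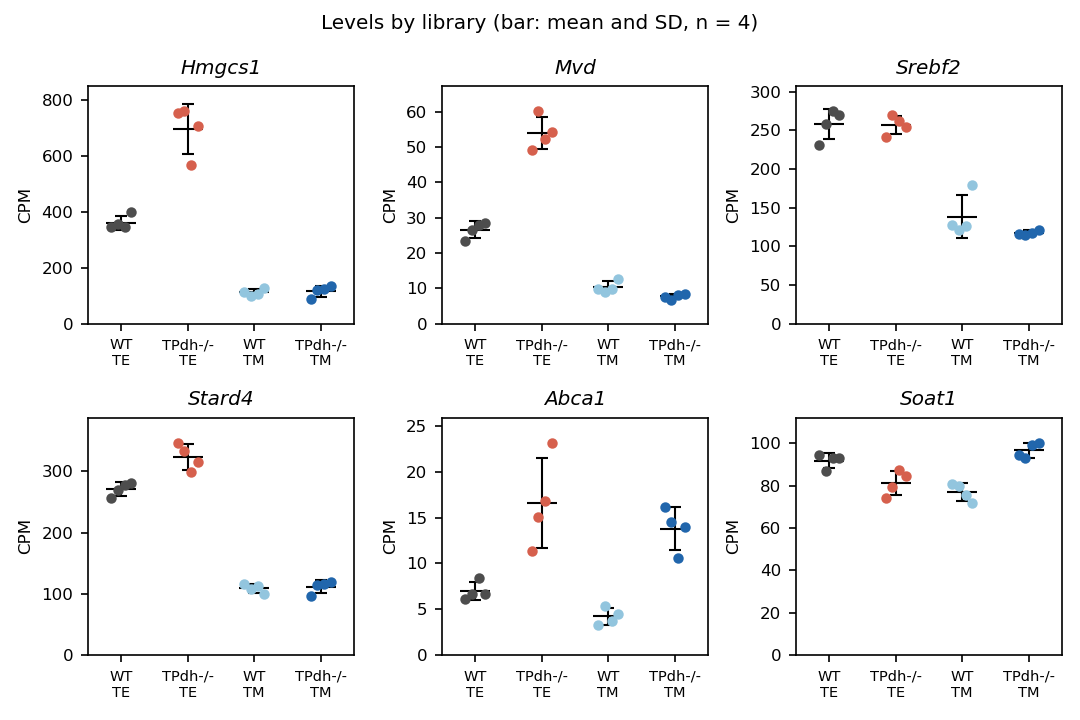
CPM of 6 genes by library (points), with the mean and SD of the 4 libraries of each group (black). Hmgcs1, Mvd and Stard4 are highest in TPdh-/- TE cells and low in both TM groups, Srebf2 is lower in TM cells and overlaps between genotypes, with library 12 high in WT TM, and Abca1 is higher in TPdh-/- cells of both cultures. Soat1 moves in opposite directions in TE, where the genotypes overlap, and TM.

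The genotype effect differed between the cultures. In the interaction term, which is the TM genotype difference minus the TE genotype difference, 19 of the 34 genes were called lower and 2 higher, where 15.6% of all genes were called, 7.51% lower and 8.05% higher. The 19 were 7 of the 8 mevalonate enzymes, 10 of the 11 sterol enzymes, Insig1 and Lpcat3. Mvd had the largest difference, -1.45 ± 0.16 (SE, adjusted p = 4.33e-06): it was higher in TPdh-/- TE and lower in TPdh-/- TM cells. Acat2 followed with -1.07 ± 0.13 (SE, adjusted p = 1.11e-05) and Cyp51 with -0.96 ± 0.16 (SE, adjusted p = 0.000159). Ggps1 (-0.04 ± 0.073 SE, adjusted p = 0.766) and Ebp (0.00 ± 0.097 SE, adjusted p = 0.99) were the enzymes without a called interaction. Stard4 was not called either (-0.22 ± 0.10 SE, adjusted p = 0.146), and the call of Insig1 (-0.41 ± 0.13 SE, adjusted p = 0.0222) was lost without library 1 (adjusted p = 0.0576) and without libraries 12 and 5 together (-0.38, adjusted p = 0.0523). On the TPM scale the interaction of Stard4 was called (-0.45, adjusted p = 0.00172 by limma).

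The third comparison was of the cultures. Synthesis genes were far lower in TM than in TE cells of both genotypes. In WT cells 27 of the 34 genes were lower and 1, Ggps1, was higher in TM cells, where 68.6% of all genes were called, 34.3% in each direction. CPM did not overlap in 26 lower genes and 1 higher gene, against 32.2% and 31.7% of all genes. In TPdh-/- cells 27 were lower and 3 higher (Ggps1, Soat1 and Mylip), where 67.7% of all genes were called, 34.7% lower and 33% higher. CPM did not overlap in 24 lower and 3 higher genes, against 30.7% and 29.1% of all genes. The WT TE libraries enter both the TE genotype comparison and the WT culture comparison, so the values are given side by side only. The TPM of the median gene moved by 0.181 (log2) against its CPM between the WT cultures. Of the 22 SREBP2 targets, 21 were lower in TM cells of each genotype, with a median difference of -1.21 in WT and -1.93 in TPdh-/- cells, against 0.0076 and -0.0031 over all genes.

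Fdps had the largest difference of the 34. It had 234, 241, 233 and 269 CPM in WT TE and 53.8, 46.9, 52.3 and 46.2 CPM in WT TM libraries (-2.29 ± 0.073 SE, adjusted p = 2.23e-11). In TPdh-/- cells it went from 432, 461, 385 and 484 CPM to 37.5, 55.03, 55.5 and 57.3 CPM (-3.10 ± 0.16 SE, adjusted p = 1.91e-12). No TM library came near a TE library. Hmgcs1 in TM against TE cells differed by -1.70 ± 0.091 (SE, adjusted p = 1.37e-09) in WT and -2.58 ± 0.16 (SE, adjusted p = 1.61e-11) in TPdh-/- cells. Mvk, with 4.33 to 6.51 CPM in WT TM against 13.1 to 18.8 CPM in WT TE cells, differed by -1.68 ± 0.17 (SE, adjusted p = 7.76e-09). Mvd differed by -1.36 ± 0.13 (SE, adjusted p = 3.39e-09) in WT cells and by -2.82 ± 0.093 (SE, adjusted p = 2.05e-12) in TPdh-/- cells. In the sterol arm the differences ran from -0.52 (Hsd17b7) to -1.54 (Cyp51) in WT cells and from -0.58 (Ebp) to -2.51 (Cyp51) in TPdh-/- cells, and all 11 enzymes were called lower in each genotype. Ggps1 went the other way, with 50.4, 48.3, 48.4 and 50.1 CPM in WT TE and 59.4, 59.8, 58.01 and 51.2 CPM in WT TM cells (0.21 ± 0.055 SE, adjusted p = 0.00245). It was also higher in TM cells of TPdh-/- mice (0.17 ± 0.048 SE, adjusted p = 0.0114).

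Of the 5 genes of the SREBP system, 4 were lower in TM than in TE cells of WT mice. Srebf2 had 232 to 274 CPM in WT TE and 121 to 179 CPM in WT TM libraries (-0.90 ± 0.14 SE, adjusted p = 2.58e-07), and Srebf1 had 74.8 to 94.5 and 27.99 to 44.1 CPM (-1.35 ± 0.16 SE, adjusted p = 8.6e-09). For Insig1 the difference was -1.13 ± 0.054 (SE, adjusted p = 2.76e-09). Insig2, the second INSIG gene, differed less (-0.30 ± 0.062 SE, adjusted p = 0.000481) and was at 0.06 on the TPM scale (adjusted p = 0.628 by limma), and Scap was not called in WT cells (-0.05 ± 0.11 SE, adjusted p = 0.631), although without library 12 it was lower (-0.15, adjusted p = 0.0351). In TPdh-/- cells all 5 genes of the SREBP system were called lower, with Insig2 (-0.15 ± 0.06 SE, adjusted p = 0.0491) and Scap (-0.20 ± 0.056 SE, adjusted p = 0.0327) near the threshold, where leaving out single libraries lost both calls (adjusted p up to 0.158 and 0.0998).

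Among the genes of transport and storage, Stard4, which carries cholesterol between membranes, followed the enzymes. It had 256, 269, 278 and 280.4 CPM in the WT TE libraries and 346, 334, 298 and 316 CPM in the TPdh-/- TE libraries (0.26 ± 0.056 SE, adjusted p = 0.0101), and 98.9 to 116 CPM in WT TM and 95.8 to 119.9 CPM in TPdh-/- TM libraries. Soat1, which esterifies cholesterol for storage in droplets, moved in opposite directions in TE and TM cultures on the CPM scale. It had 94.6, 86.9, 93.1 and 92.9 CPM in the WT TE libraries and 74.3, 79.4, 87.3 and 84.7 CPM in the TPdh-/- TE libraries (-0.17 ± 0.058 SE, adjusted p = 0.0228). In memory cells it had 80.6, 79.9, 75.6 and 71.7 CPM in the WT TM libraries and 94.7, 92.96, 99.2 and 100.2 CPM in the TPdh-/- TM libraries (0.33 ± 0.047 SE, adjusted p = 0.000403), and the TM groups did not overlap. Its interaction was 0.51 ± 0.075 (SE, adjusted p = 0.000291). The TE groups overlapped, and the TE call was lost without library 5 (-0.13, adjusted p = 0.0693). On the TPM scale the TE difference was -0.0002 (adjusted p = 0.999 by limma) and the interaction was 0.29 (adjusted p = 0.0671). Neither was called there. Npc1, the membrane protein that exports cholesterol from lysosomes, had 75.7, 76.3, 86.8 and 97.2 CPM in the WT TE libraries and 86.2, 100.1, 104 and 113 CPM in the TPdh-/- TE libraries (0.26 ± 0.12 SE, adjusted p = 0.0404) and 74.5, 74.1, 70.3 and 87.04 CPM in the WT TM libraries and 89.8, 82.9, 93.2 and 101 CPM in the TPdh-/- TM libraries (0.26 ± 0.088 SE, adjusted p = 0.0631). The TE call was lost without any of libraries 1, 2, 3, 6, 7 or 8 (adjusted p between 0.0685 and 0.147), and the TM difference was called without library 12 (0.33, adjusted p = 0.0251) or library 14 (0.31, adjusted p = 0.0454). Npc2, its soluble partner, had 283 to 368 CPM over all 16 libraries and was not called in any comparison.

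On the efflux side, Abca1, which exports cholesterol to lipid-poor apolipoproteins, had the largest genotype difference of the 34 genes in each culture. It had 3.31, 5.39, 3.73 and 4.50 CPM in the WT TM libraries and 16.2, 14.5, 10.6 and 13.98 CPM in the TPdh-/- TM libraries, 3.27 times the WT level (1.71 ± 0.20 SE, adjusted p = 9.43e-06). In effector cells it had 6.14, 6.66, 8.37 and 6.67 CPM in the WT TE libraries and 11.3, 15.1, 16.8 and 23.2 CPM in the TPdh-/- TE libraries, 2.38 times the WT level (1.25 ± 0.23 SE, adjusted p = 8.6e-05). The groups lay apart in both cultures, where 12% of all genes were higher without overlap in TM and 16.5% in TE cells. The difference between the 2 effects was 0.46 ± 0.31 (SE, adjusted p = 0.283) and was not called. Macrophages are rich in Abca1, and their markers moved with the genotype. The 13 markers of macrophages and monocytes summed to 5.72 to 6.69 TPM in WT TM and 22.9 to 39.1 TPM in TPdh-/- TM libraries (5.18-fold, exact 2-sided permutation test p = 0.0286, the smallest 4 against 4 can give, 0.0364 after adjustment over 14 tests), and 13 of 13 were higher in TPdh-/- cells. In TE cultures the sums were 10.2 to 13.9 and 14.4 to 23.7 TPM (1.62-fold, exact permutation p = 0.0286), and 11 of 13 were higher. Most of the sum in TPdh-/- TM cells was Lyz2 (24.1 TPM, against 2.73 in WT TM), followed by Cd68 (4.47 and 2.74 TPM), while the defining markers Csf1r, Adgre1 and Mertk had mean levels of 0.532, 0.325 and 0.065 TPM in TPdh-/- TM cells and mean levels of at most 0.12 TPM in WT TM cells. In WT TE cells Mertk was at 0 in all 4 libraries. The 7 dendritic cell markers summed to 1.01 to 1.72 TPM in WT TM and 7.57 to 15.1 TPM in TPdh-/- TM libraries. In TPdh-/- TM cells 5 of the 7 were higher, and most of the sum was Itgax (9.1 TPM, against 1.09 in WT TM). Flt3 and Clec9a had means of 0.0225 and 0.107 TPM there. In TE cultures the sum was lower in TPdh-/- (1.91 to 4.57 TPM) than in WT libraries (5.2 to 6.57 TPM), although 3 of the 7 were higher. The part of macrophages and dendritic cells in the Abca1 level was not tested. In bulk RNA, fewer cells of a type and less RNA per cell cannot be told apart.

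Over the other lists of cell types, NK markers summed to 27.8 to 40.0 TPM in WT TM and 90.9 to 133.7 TPM in TPdh-/- TM libraries, and to 45.5 to 58.5 and 38.9 to 47.2 TPM in TE cultures. All 9 were higher in TPdh-/- TM cells. In TE cells 7 of 9 were higher, with Tyrobp at 2.29 and 5.94 TPM, while Eomes, the largest share of the sum, was at 43.5 and 30.1 TPM. Gamma-delta T cell markers were higher in TPdh-/- cells of both cultures (2.87-fold in TM and 2.28-fold in TE), and CD8 T cell markers were at 0.812 and 0.817 times the WT sum. B and plasma cell markers differed 1.94-fold in TM (exact permutation p = 0.171) and 1.66-fold in TE cultures (p = 0.0286), and those of CD4 and regulatory T cells 1.87-fold (p = 0.0286) and 1.57-fold (p = 0.0571). Their part in the results on the synthesis genes was not tested.

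The start regions of the LXR targets with the smallest adjusted p between genotypes are printed in the same way, with capitals also for a direct repeat of GGTNA with 5 bases between, the form of site bound by LXR with its partner RXR. The positions are Abca1 at chr4:53159896-53160095 on the minus strand, Srebf1 at chr11:60210472-60210671 on the minus strand (the start, of 3 in the table, whose promoter holds the repeat), Mylip at chr13:45389542-45389741 on the plus strand and Lpcat3 at chr6:124662904-124663103 on the plus strand.
Abca1: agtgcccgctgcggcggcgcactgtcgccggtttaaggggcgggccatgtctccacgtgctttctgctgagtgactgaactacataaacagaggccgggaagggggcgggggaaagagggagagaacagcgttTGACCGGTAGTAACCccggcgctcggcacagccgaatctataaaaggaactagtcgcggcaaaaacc
Srebf1: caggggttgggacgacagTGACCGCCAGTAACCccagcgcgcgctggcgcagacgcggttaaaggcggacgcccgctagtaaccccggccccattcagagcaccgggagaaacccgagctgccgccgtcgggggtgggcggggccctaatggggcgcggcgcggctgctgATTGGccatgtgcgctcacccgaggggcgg
Mylip: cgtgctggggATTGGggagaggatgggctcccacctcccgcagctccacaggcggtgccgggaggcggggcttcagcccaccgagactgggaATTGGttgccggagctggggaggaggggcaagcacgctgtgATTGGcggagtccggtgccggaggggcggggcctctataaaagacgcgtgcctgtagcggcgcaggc
Lpcat3: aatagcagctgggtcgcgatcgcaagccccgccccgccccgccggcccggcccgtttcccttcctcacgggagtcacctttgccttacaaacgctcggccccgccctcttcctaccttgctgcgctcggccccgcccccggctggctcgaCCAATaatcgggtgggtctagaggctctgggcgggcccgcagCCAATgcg

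The repeat stood in 2 of the 28 genes with a promoter, Abca1 (67 bases before the start) and Srebf1 (182 bases before the start), both on the opposite strand, and in 0.718% of all promoters. Again genes were counted by any promoter and the share is per promoter. None of the 18 genes on the SREBP2 side held it. Abca1 was higher in TPdh-/- than in WT cells in both cultures, and Srebf1 was not called in TE and lower in TM cells.

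The other exporter, Abcg1, did not follow Abca1. It had 82.1, 86.3, 85.1 and 86.9 CPM in the WT TE libraries and 77.1, 82.3, 87.95 and 93.5 CPM in the TPdh-/- TE libraries (0.00 ± 0.063 SE, adjusted p = 0.987) and 73.7, 70.96, 73.2 and 91.96 CPM in the WT TM libraries and 69.03, 65.8, 60.8 and 76.9 CPM in the TPdh-/- TM libraries (-0.19 ± 0.11 SE, adjusted p = 0.136), with library 12 again the highest of its group. Without library 12 it was lower in TM than in TE cells of WT mice (-0.23, adjusted p = 0.009). Lpcat3, an LXR target that inserts polyunsaturated chains into phospholipids, rose in TE cultures (0.28 ± 0.08 SE, adjusted p = 0.0169) with overlapping groups, and the call was lost without any of libraries 1, 2, 6 or 8 (adjusted p between 0.05 and 0.073). It was not called in TM cultures (-0.17 ± 0.098 SE, adjusted p = 0.167). Its exons share 10.2% of their bases with Emg1 on the other strand. Mylip, a ubiquitin ligase that marks lipoprotein receptors for breakdown, had 20.7, 18.1, 23.5 and 22.4 CPM in the WT TE libraries and 14.4, 16.6, 18.2 and 18.5 CPM in the TPdh-/- TE libraries (-0.32 ± 0.12 SE, adjusted p = 0.0147). In memory cells it had 19.3, 19.6, 18 and 21.7 CPM in the WT TM libraries and 23.5, 20.2, 20.7 and 24.3 CPM in the TPdh-/- TM libraries (0.17 ± 0.086 SE, adjusted p = 0.222). Its interaction was 0.50 ± 0.14 (SE, adjusted p = 0.0172), and on the TPM scale neither this nor the TE difference was called. Neither LXR gene was called between genotypes. Nr1h2 (LXR beta) was at 21.9 to 25.5 CPM in WT TE and 17.4 to 22.7 CPM in TPdh-/- TE cells (-0.20 ± 0.094 SE, adjusted p = 0.113), and without library 7 the difference was called (-0.28, adjusted p = 0.0414). Nr1h3 (LXR alpha), the main form of macrophages and liver, was at 0.514 to 1.29 CPM over all 16 libraries and was not called in any comparison.

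Between the cultures, these genes did not move together. In TM against TE cells Stard4 was lower in WT (-1.32 ± 0.059 SE, adjusted p = 6.96e-11) and in TPdh-/- cells (-1.54 ± 0.087 SE, adjusted p = 1.48e-11), and so was Lpcat3 (-0.79 ± 0.098 SE, adjusted p = 2.37e-07 and -1.25 ± 0.081 SE, adjusted p = 1.3e-09). Soat1 was lower in TM cells of WT (-0.26 ± 0.048 SE, adjusted p = 0.000537) and higher in TM cells of TPdh-/- mice (0.25 ± 0.058 SE, adjusted p = 0.00068), and the latter turned to -0.16 on the TPM scale. Abca1 was lower in TM cells of WT (-0.72 ± 0.18 SE, adjusted p = 0.00377), a call lost on the TPM scale (-0.49, adjusted p = 0.0732 by limma). In TPdh-/- cells its difference was -0.27 ± 0.25 (SE, adjusted p = 0.212), and -0.41 without library 5 (adjusted p = 0.044). Abcg1 was lower and Mylip higher in TM cells of TPdh-/- mice (-0.32 ± 0.093 SE, adjusted p = 0.00238 and 0.39 ± 0.10 SE, adjusted p = 0.0015), and in WT cells Abcg1 was lower without library 12 (-0.23, adjusted p = 0.009). Npc1 and Npc2 were called in neither genotype, except that Npc1 was lower in both without libraries 12 and 5 (-0.20 in WT and -0.21 in TPdh-/- cells, adjusted p = 0.0383 and 0.0345) and Npc2 was higher in TM cells of WT on the TPM scale (0.22, adjusted p = 0.0205 by limma).

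The SREBP2 targets and the LXR targets were also set side by side. The mean log2 CPM of the 22 SREBP2 targets was 6.22 ± 0.07 (SD, n = 4) in WT TE, 6.83 ± 0.10 in TPdh-/- TE, 5.09 ± 0.059 in WT TM and 5.04 ± 0.13 in TPdh-/- TM cells. That of the 5 LXR targets was 5.16 ± 0.099, 5.40 ± 0.15, 4.53 ± 0.16 and 4.78 ± 0.10. Their difference per library was 0.945 to 1.13 in WT TE, 1.27 to 1.69 in TPdh-/- TE, 0.38 to 0.688 in WT TM and 0.023 to 0.479 in TPdh-/- TM cells. Every TPdh-/- TE library was above every WT TE library, and the TM genotypes overlapped. Both means were lower in TM than in TE cells, and they are descriptions with no test. The 5 LXR targets did not share this fall evenly. In TPdh-/- cells the culture difference was -1.71 for Srebf1, -1.25 for Lpcat3, -0.32 for Abcg1, -0.27 for Abca1 (not called) and 0.39 for Mylip. In WT cells it was -1.35 for Srebf1, -0.79 for Lpcat3 and -0.72 for Abca1, and Abcg1 (-0.14) and Mylip (-0.11) were not called. On the efflux side the difference between genotypes was 1.71 in TM and 1.25 in TE cells for Abca1, and -0.34 to 0.28 for the other 4 targets between genotypes in either culture.

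**Figure D4:**
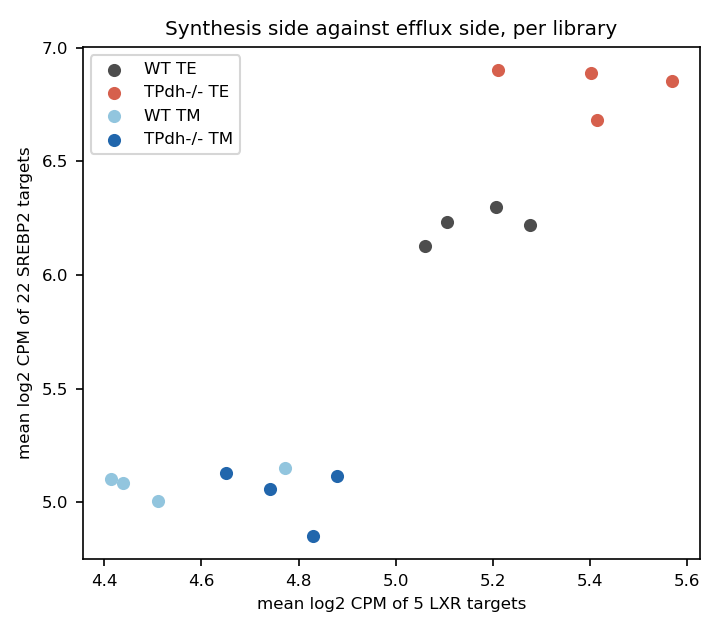
Mean log2 CPM of the 22 SREBP2 targets (vertical axis) against that of the 5 LXR targets (horizontal axis), 1 point per library. TPdh-/- TE libraries lie at the top (6.68 to 6.90), WT TE libraries below them (6.13 to 6.30), and both TM groups at 4.85 to 5.15, where TPdh-/- libraries lie to the right of 3 of the 4 WT libraries.

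Other genes of the pathway were counted from lists by function. Of all genes tested, 17.3% were called higher and 14.3% lower in TPdh-/- TE cells, and 11% and 7.27% in TPdh-/- TM cells. Of 10 lipogenic genes driven by SREBP1, 8 were higher in TPdh-/- TE cells and none lower, with Elovl5 (0.48 ± 0.026 SE, adjusted p = 1.69e-07), Elovl6 (0.88 ± 0.11 SE, adjusted p = 3.3e-06) and Fasn (1.18 ± 0.17 SE, adjusted p = 4.23e-05) leading. In TM cells 3 were higher (Fads2 0.86, Acss2 0.30 and Scd1 1.06) and Fasn was lower (-0.56 ± 0.20 SE, adjusted p = 0.0255). The TM genotypes overlapped in Fads2 and in Scd1 (adjusted p = 0.0365). Both genes were far lower in TM than in TE cells of WT mice (-5.95 and -6.26). Of 17 tested genes of isoprenoid use, ubiquinone synthesis and related steps, 5 were higher in TPdh-/- TE cells, led by Aacs (0.92 ± 0.11 SE, adjusted p = 6.68e-06), which makes acetoacetyl-CoA from ketone bodies in the cytosol, and 2 were lower, Fnta and Fntb, the subunits of protein farnesyltransferase, by -0.26 ± 0.042 (SE, adjusted p = 0.00453) and -0.24 ± 0.088 (SE, adjusted p = 0.0208). In TM cells 1 was higher, Rabggtb (0.17 ± 0.058 SE, adjusted p = 0.0485). Of 9 genes listed around SREBP processing and degradation, 2 were higher in TPdh-/- TE cells and Erlin2 was lower (-0.13). The higher genes were Nfe2l1 (0.61 ± 0.059 SE, adjusted p = 0.000101) and the protease gene Mbtps2 (0.21 ± 0.029 SE, adjusted p = 0.00819). Nfe2l1 encodes a transcription factor and does not itself process or degrade SREBPs. In TM cells Rnf145 was lower (-0.21).

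Of 13 genes of sterol transport and lipoprotein receptors, 6 were higher and 4 lower in TPdh-/- TE cells, where 31.6% of all genes were called in either direction. The receptor gene Lrp8 led the first (0.63 ± 0.14 SE, adjusted p = 0.000132), and Gramd1b, Gramd1a and Gramd1c, whose products carry cholesterol from the plasma membrane to the endoplasmic reticulum, were among the second (-0.24, -0.52 and -0.30). In TM cells Scarb1 (-0.43 ± 0.07 SE, adjusted p = 0.000625) and Lipa (-0.17) were lower. Of 11 tested genes of oxysterol metabolism and LXR partners, Rxra, which encodes the partner of LXR, was higher in TPdh-/- TE cells (1.40 ± 0.14 SE, adjusted p = 1.3e-07), as was Cyp27a1, an oxysterol-forming enzyme (2.51 ± 0.48 SE, adjusted p = 0.00257). Sult2b1, a sterol sulfotransferase, was lower in both cultures, by -1.39 ± 0.13 (SE, adjusted p = 5.77e-07) in TE and -0.42 ± 0.12 (SE, adjusted p = 0.0437) in TM cells. Arl4c was lower in TM cells (-0.17 ± 0.066 SE, adjusted p = 0.0394), and the oxysterol receptor gene Gpr183 was lower in TE (-0.98) and higher in TM cells (0.66). Between the cultures, 6 of the 10 lipogenic genes were lower and 1 higher in TM cells of WT, with Fads2 at -5.95 ± 0.11 (SE, adjusted p = 2.09e-13) and Scd2 at -2.48 ± 0.10 (SE, adjusted p = 3.18e-12), and 9 were lower and 1 higher in TPdh-/- cells. Of the isoprenoid and related genes, 7 were lower and 6 higher in WT, with Rdh11 at -0.82 ± 0.041 (SE, adjusted p = 2.5e-09) and Rabggta at 0.52 ± 0.049 (SE, adjusted p = 1.98e-06), and 8 lower and 5 higher in TPdh-/- cells. Of all genes, 68.6% were called between the WT cultures and 67.7% between the TPdh-/- cultures, so 13 called of 17 isoprenoid genes is a share near the background.

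The tables also give the mean length of each gene's transcripts, weighted by their estimated abundance, which moves when the mix of isoforms moves. Between genotypes in TM cells no gene of the 34 had lengths without overlap, and in TE cells 2 were shorter in TPdh-/- libraries (Idi1 and Srebf1), where 3.17% and 4.51% of all genes did not overlap. Between the cultures 9 of 34 genes in WT and 12 in TPdh-/- cells did not overlap, against 20.6% and 20.3% of all genes. Srebf1 averaged 1571, 1660.0, 1631 and 1591 bases in WT TE and 1261, 1246, 1314 and 1234 bases in WT TM libraries, a change of -21.7%. Soat1 averaged 4878, 5079, 4482 and 4871 bases in WT TE and 5986, 6565, 6409 and 5650.2 bases in WT TM libraries, 27.5% longer. In TPdh-/- cells the same genes changed by -19.8% and 30.8%. From WT TE to WT TM cells the length changed by -16.5% in Nr1h2, -11.5% in Lpcat3, -6.48% in Insig1 and 22.7% in Tm7sf2. TM and TE libraries did not overlap in any of these 6 genes in either genotype. TPM divides counts by this length. Between cultures of WT cells Nr1h2 was lower on the CPM scale (-0.22 ± 0.10 SE, adjusted p = 0.0441) and higher on the TPM scale (0.30, adjusted p = 0.0113 by limma on log2(TPM + 0.1)). The call on the CPM scale was lost without any 1 of libraries 1, 2, 3, 9, 10 or 11 (adjusted p from 0.0516 to 0.145).

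**Figure D5:**
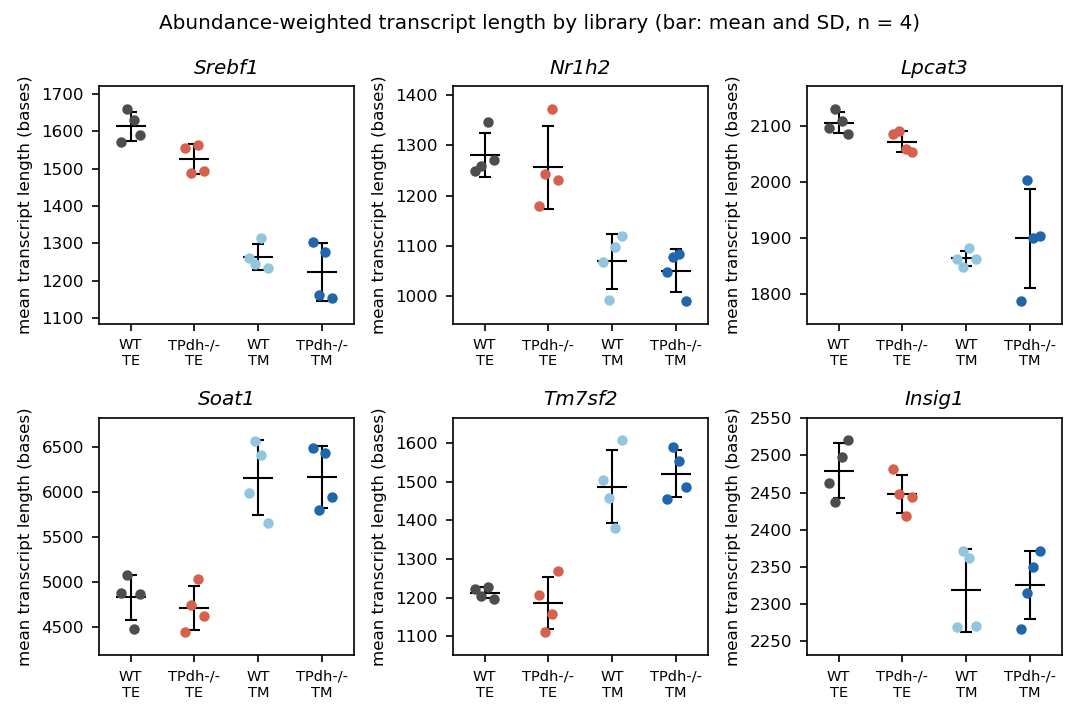
Abundance-weighted mean transcript length in bases of 6 genes by library (points), with the mean and SD of each group (black); the vertical axes do not start at 0. Srebf1, Nr1h2, Lpcat3 and Insig1 are shorter and Soat1 and Tm7sf2 longer in all 8 TM libraries than in all 8 TE libraries.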

How the data were processed

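RNA of 16 libraries was sequenced as poly(A)-selected TruSeq libraries, whose kit does not mark strand. Per the submitters' processing notes, the authors used STAR 2.7.6a, RSEM 1.3.3 and DESeq2 with mm10/GRCm38. The annotation release was not given in the sources used here. The deposited tables hold expected counts, TPM and mean transcript lengths per gene (RSEM splits reads shared by several genes). Of 55401 genes, 99.5% had a symbol in the table used here.

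The 34 genes and all lists were chosen with earlier results of these data known, and all 34 are named. From other lists, up to 3 called genes per direction were named by smallest adjusted p. Some genes of the pathway are not reported here.

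Expected counts as deposited were rounded and tested with edgeR 4.0.16 (filterByExpr with a minimum of 10 counts and 15 in total, TMM, quasi-likelihood, Benjamini-Hochberg over 15277 genes, common coefficient of variation 0.104). Promoter sequences are RefSeq's on GRCm38.p6. Shared words of 75 bases and exon overlaps were counted in GENCODE's transcripts. Alternatives used DESeq2 1.42.0, limma 3.58.1 on log2 CPM (prior count 2) or on log2(TPM + 0.1) of the deposited TPM over genes with a mean of at least 0.5, other factors and filters, fewer libraries, and each library left out. The fits were tested on simulated data. Marker sums were tested by exact permutation of 4 against 4 libraries.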

Additional observations from a re-analysis of the deposited data

Results flagged for a closer look

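In 4 of the 136 groups of 4 libraries examined (34 genes in 4 groups), a single library lay apart from the others, judged by its gap to the nearest library over the range of the group, where chance gives about 1 in 20, or 6.8 of 136. Library 12 of WT TM was high in Srebf2 (179 CPM against 121 to 128 CPM in the other 3, gap ratio 0.887) and in Abcg1 (91.96 against 70.96 to 73.7 CPM, gap ratio 0.869). Library 13 of TPdh-/- TM was low in Fdps (37.5 against 55.03 to 57.3 CPM, gap ratio 0.885). Library 16 of TPdh-/- TM was low in Acat2 (33.9 against 38.5 to 39.2 CPM, gap ratio 0.861).

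In 21 genes the genotype difference was not the same in the 2 cultures, by the interaction term in edgeR over all 15277 genes. In the mevalonate arm the TM difference minus the TE difference, on the log2 CPM scale, was -1.45 for Mvd, -1.07 for Acat2, -0.93 for Idi1, -0.89 for Hmgcs1, -0.81 for Fdps, -0.77 for Mvk and -0.63 for Pmvk. In the sterol arm it was -0.96 for Cyp51, -0.87 for Msmo1, -0.79 for Dhcr7, -0.77 for Lss, -0.73 for Fdft1, -0.72 for Hsd17b7, -0.69 for Sqle, -0.60 for Tm7sf2, -0.52 for Nsdhl and -0.45 for Sc5d. Insig1 gave -0.41 and Lpcat3 -0.45. Soat1 and Mylip had the opposite sign, with 0.51 and 0.50.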

How the results depend on the processing

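Of 170 pairs of gene and comparison, 109 were called, and 91 of these calls were kept under every alternative run. With DESeq2's size factors in edgeR 0 calls were lost and 0 gained, with no low-count filter 3 were lost, with DESeq2's own test 2 were gained, and with limma on log2 CPM 1 was lost. With limma on log2(TPM + 0.1), 9 calls were lost, 2 gained and 4 differences changed sign: Nr1h2 between cultures (0.30 in WT and 0.13 in TPdh-/- cells), Insig2 between WT cultures (0.056) and Soat1 between TPdh-/- cultures (-0.16). On that scale 1 gene was lower between TM genotypes, 0 were lower between TE genotypes, 3 were higher between WT cultures and 0 were higher in the interaction. In the fit with the compared groups only, 1 gene was lower between TM genotypes, in place of 3. Without libraries 12 and 5 together, 2 calls were lost and 6 gained.

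With each library left out in turn, genes higher between TE genotypes numbered 19 to 22 (23 with all libraries) and lower 1 to 3 (2). Between TM genotypes they numbered 2 to 3 higher (2) and 1 to 5 lower (3), between WT cultures 26 to 29 lower (27), between TPdh-/- cultures 24 to 27 lower (27), and in the interaction 18 to 19 lower (19). No paired analysis was possible because the library numbers in the labels run from 1 to 16 and no number is shared between groups. Depth limited Nr1h3 most, at 0.514 to 1.29 CPM.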
